A study of Mus musculus with 10 samples.

Results

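Genes of glycolysis and of the hypoxia-inducible factor (HIF) pathway were followed in mouse skin as 38 genes chosen by name. They comprised 4 glucose and lactate transporters, 16 glycolytic enzymes, 3 kinases that set glycolytic flux, 7 HIF subunits and oxygen-sensing genes, and 8 genes known as HIF targets. All 38 were found among the 55487 genes of the deposited tables, and all 38 passed the filter on low counts that left 17321 genes for testing. RNA from skin of 5 mice of the genotype written as Hamp1-KI ker (KI) and 5 wild-type mice (WT) was sequenced from mRNA libraries made with a stranded kit, 1 library per animal title. Hamp1 encodes hepcidin, the peptide hormone that limits iron export from cells through ferroportin, and KI stands for knock-in. The term "ker" is not spelled out in the labels, which also name no promoter, strain, sex or age. Animal titles begin with EAS37 (KI 1 and KI 2; WT 1, WT 2 and WT 3) or EAS42 (KI 3, KI 4 and KI 5; WT 4 and WT 5), and the meaning of that prefix is not given. Levels are TPM, a share of all transcripts that is scaled to transcript length, and values within a group are given in the order of animals 1 to 5. A gene is called higher or lower where edgeR's quasi-likelihood test gave a Benjamini-Hochberg adjusted p under 0.05 over all 17321 genes. Gene coordinates are those of GENCODE M21 on GRCm38.

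Glucose enters cells through facilitative transporters of the SLC2 family and is split to pyruvate by the glycolytic enzymes, and lactate made from pyruvate leaves or enters cells through monocarboxylate transporters of the SLC16 family. Several steps are served by separate genes in skeletal muscle and in other tissues. HIF is a pair of an oxygen-regulated alpha subunit (Hif1a or Epas1) and the stable partner Arnt. When oxygen and iron are at hand, prolyl hydroxylases (Egln1, Egln2 and Egln3) mark the alpha subunit for removal through Vhl, so HIF activity is set largely at the protein level, which RNA does not measure. The epidermis has no vessels of its own, and keratinocytes rely on the glucose transporter encoded by Slc2a1.

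The targeted gene stood between 411 and 872 TPM in KI libraries and between 10.3 and 18.4 TPM in WT libraries. Keratins of the epidermis were abundant in every library. Krt5 stood between 2990 and 4150 TPM in KI and between 3120 and 4750 TPM in WT and was not called (adjusted p = 0.876), nor was Krt10 (adjusted p = 0.957). Krt14, of the basal layer, stood between 5940 and 11800 TPM in KI and between 2110 and 4880 TPM in WT (log2 fold change 1.42, adjusted p = 0.00742), and Krt1, of the layers above, between 825 and 1520 TPM in KI and between 298 and 725 TPM in WT (1.33, adjusted p = 0.0061). Depth was 18.96 to 26.43 M expected counts per library. The skin samples also held markers of skeletal muscle at levels that differed between libraries. None of 20 such markers was at 0 in all libraries. Their summed level was 10400, 2940, 31000, 11400 and 23200 TPM in KI and 32900, 51000, 30900, 42800 and 52500 TPM in WT. KI 2 was lowest, and only KI 3 reached the WT range. Of the 19 muscle markers tested, 2 (10.5%) were called lower in KI, with a median log2 fold change of -1.28, while DESeq2 called 13 (68.4%) lower. Of all genes tested, edgeR called 15.6% higher and 15.3% lower, and DESeq2 called 18.3% higher and 18.8% lower. Endothelial markers (10 tested, 8 lower, and 9 lower by DESeq2) summed to 102 to 180 TPM in KI and 201 to 267 TPM in WT. Adipocyte markers (10 tested, 6 lower, and 8 lower and 1 higher by DESeq2) summed to 642 to 1250 TPM in KI and 1470 to 2450 TPM in WT. No marker of either list was at 0 in all libraries. Red blood cell markers (6 of 7 tested, none called by edgeR or DESeq2 and none at an unadjusted p under 0.05) summed to 869 to 2560 TPM in KI and 1120 to 3380 TPM in WT. Markers of activated keratinocytes (9 of 10 tested, 6 higher, and 8 higher by DESeq2) summed to 5420 to 14700 TPM in KI and 956 to 4730 TPM in WT. None of these red cell or keratinocyte markers was at 0 in all libraries. In such bulk samples, fewer cells of a type and less RNA per cell cannot be told apart.

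Of the 38 genes, 9 were called higher and 6 lower in KI skin, and 23 were not called. Among all 17321 genes tested, 30.9% were called, 15.6% higher and 15.3% lower. Of the members, 23.7% were called higher and 15.8% lower, and the difference from the shares of all genes was not tested. The median log2 fold change was -0.04 over the members and -0.01 over all genes tested. The rises were in Slc2a1, Slc16a1, Eno1, Pgam1, Pfkl, Egln3, Hif1a, Car9 and Ankrd37, and the falls in Aldoa, Pfkm, Egln2, Epas1, Arnt and Bnip3. All KI libraries lay above all WT libraries in TPM for 7 members and below them for 5, where 7.63% and 10% of all genes tested did so. Each of the 9 higher calls held in all 10 fits that left out 1 library. The lower calls numbered 1 without KI 4, 2 without KI 1, KI 2, WT 1 or WT 2, 3 without KI 5, WT 3, WT 4 or WT 5, and 8 without KI 3. A fit with the mean muscle marker level as a covariate is called muscle-adjusted below. It gave 3 members higher (Slc2a1, Slc16a1 and Eno1) and none lower. At an unadjusted p under 0.05 it had 10 members higher and 1 lower, against 1641 higher and 1523 lower of all 17321 genes. In that fit 2.3% of all genes were called, 1.58% higher and 0.716% lower. The covariate, a mean log2 CPM, was 8.325, 6.741, 9.87, 8.415 and 9.208 in KI and 9.725 to 10.508 in WT. Only KI 3 reached the WT range, so the muscle-adjusted fit separates muscle level from genotype poorly. A call lost in it does not show that muscle content made the difference. DESeq2 called 10 members higher and 6 lower (18.3% and 18.8% of all genes). Within EAS37 alone 10 members were higher and 2 lower (15% and 13.4% of all genes), and within EAS42 alone 9 were higher and 1 lower (6.68% and 7.26%). With the prefix as a block 11 were higher and 7 lower (18.9% and 19.4%). With no filter on low counts the higher calls still numbered 9 and the lower calls 2. That fit called 7.44% higher and 6.94% lower of its 31097 genes. Among the 17321 genes of the main test it called 12.5% and 12.0%.

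**Figure D1:**
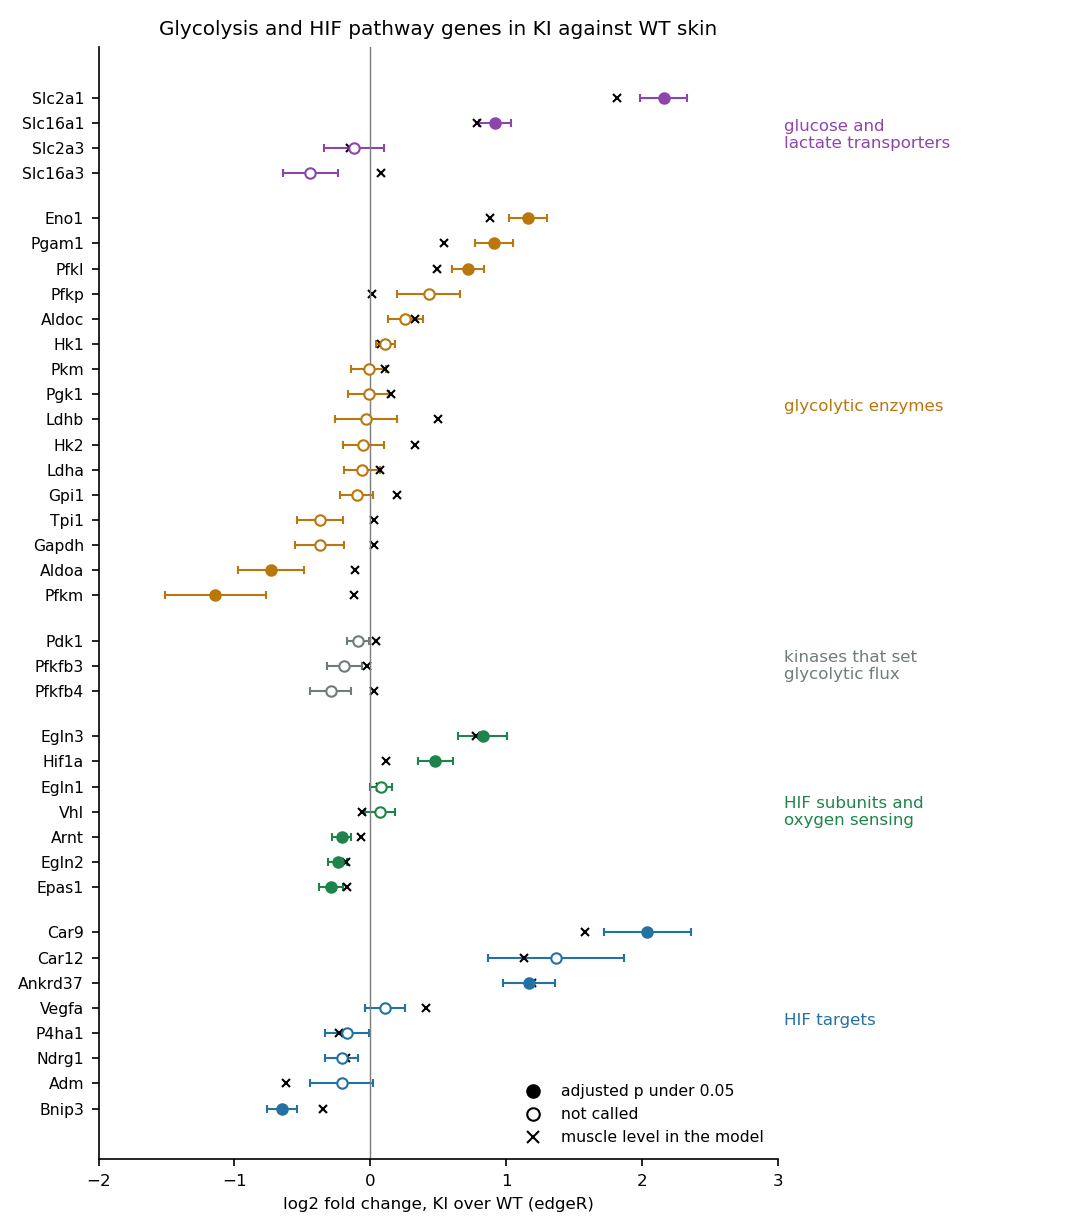
Log2 fold change of each of the 38 genes in KI over WT skin (x axis) with its standard error, ordered by role, filled where the edgeR adjusted p was under 0.05. Crosses give the muscle-adjusted log2 fold change: Pfkm moves to -0.12 and Aldoa to -0.11, while Slc2a1 stays at 1.82.

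The promoters of 4 members that moved are shown because genes on both sides of the comparison carry the core sequence bound by HIF, ACGTG or GCGTG on either strand. Each window of 300 bases, from RefSeq on GRCm38.p6, runs 5′ to 3′ on the gene's strand and lies mostly before a start site, with the cores in capitals. Slc2a1 (chr4:119108495-119108794, plus strand) and Slc16a1 (chr3:104638414-104638713, plus strand) encode transporters and Ankrd37 (chr8:45999801-46000100, minus strand) an ankyrin repeat protein, and these genes were higher in KI. Bnip3 (chr7:138909457-138909756, minus strand) encodes a mitochondrial protein and was lower in KI.
Slc2a1: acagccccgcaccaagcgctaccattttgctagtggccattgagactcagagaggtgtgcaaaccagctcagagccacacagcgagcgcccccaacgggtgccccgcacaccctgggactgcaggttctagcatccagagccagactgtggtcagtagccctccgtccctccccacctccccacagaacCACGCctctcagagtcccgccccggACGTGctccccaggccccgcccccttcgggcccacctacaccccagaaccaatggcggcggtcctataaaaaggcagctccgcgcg
Slc16a1: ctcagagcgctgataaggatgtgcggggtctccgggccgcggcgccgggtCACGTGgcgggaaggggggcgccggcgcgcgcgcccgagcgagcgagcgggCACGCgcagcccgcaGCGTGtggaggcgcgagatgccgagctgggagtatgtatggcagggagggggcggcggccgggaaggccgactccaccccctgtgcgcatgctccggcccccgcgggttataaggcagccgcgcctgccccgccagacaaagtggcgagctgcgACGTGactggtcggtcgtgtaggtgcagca
Ankrd37: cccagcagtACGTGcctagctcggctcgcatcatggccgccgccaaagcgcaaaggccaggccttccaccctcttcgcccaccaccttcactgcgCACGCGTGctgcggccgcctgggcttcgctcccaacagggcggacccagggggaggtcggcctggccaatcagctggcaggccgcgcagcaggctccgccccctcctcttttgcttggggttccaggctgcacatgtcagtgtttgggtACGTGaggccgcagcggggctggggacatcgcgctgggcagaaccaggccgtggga
Bnip3: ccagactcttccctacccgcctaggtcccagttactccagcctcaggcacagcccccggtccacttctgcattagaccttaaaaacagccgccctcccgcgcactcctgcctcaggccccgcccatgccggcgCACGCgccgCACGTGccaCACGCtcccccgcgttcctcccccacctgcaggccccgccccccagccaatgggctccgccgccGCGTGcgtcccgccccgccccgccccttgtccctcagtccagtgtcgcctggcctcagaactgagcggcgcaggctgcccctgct
The Slc2a1 window held 2 cores, Ankrd37 4, and Slc16a1 and Bnip3 5 each, where a CACGTG run counts once on each strand and is also an E-box. Windows were found for 35 members, not for Slc2a3, Ndrg1 and Epas1. At least 1 core was present for 9 of 9 members called higher, 5 of 5 called lower and 17 of 21 not called, or 88.6% of the 35 members, against 63.9% of the genes tested that had a window. By window, 80.0% of the 50 member windows held a core, against 58.2% of the windows of all genes tested and 43.8% of all 32851 windows of that length. The median GC content was 61.7% in member windows, 60.0% in those of genes tested and 52.7% in all. A core is a match of letters and not a bound site.

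The transporters Slc2a1 and Slc16a1 were higher in KI skin, and Slc2a3 and Slc16a3 were not called. Slc2a1 (chr4:119108711-119137983, plus strand) encodes GLUT1, the basal glucose transporter, and had the largest log2 fold change of the 38 genes. It was at 98.3, 108, 79.9, 102 and 67.0 TPM in KI libraries and 25.6, 24.0, 21.0, 17.0 and 20.5 TPM in WT libraries. The lowest KI library stood well above the highest WT library. Means were 91.0 ± 17.0 TPM in KI skin and 21.6 ± 3.34 TPM in WT skin (SD, n = 5 each), a ratio of 4.21, and the log2 change was 2.16 ± 0.17 (± SE, edgeR; adjusted p = 5.59e-05). It was 2.34 within EAS37, 2.10 within EAS42 and 1.82 when muscle-adjusted (adjusted p = 0.00136). The summed level of activated keratinocyte markers, given above, was also higher in every KI library than in any WT library. The part of these markers in the Slc2a1 result was not tested.

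Slc16a1 (chr3:104638668-104658462, plus strand) encodes MCT1, which carries lactate and pyruvate in either direction. Its level was 24.2, 30.3, 27.6, 29.6 and 29.9 TPM in KI libraries, against 17.9, 10.6, 17.7, 16.7 and 16.3 TPM in WT libraries. The groups did not overlap, and WT 2 was the lowest library. Slc16a1 thus rose by 0.92 ± 0.12 in log2 (± SE, edgeR; adjusted p = 0.000764), by 1.05 within EAS37, by 0.79 within EAS42 and by 0.79 when muscle-adjusted (adjusted p = 0.0347). Slc16a3 encodes MCT4, the lactate exporter of fast muscle and of strongly glycolytic cells. It stood at 20.3, 14.2, 33.9, 23.1 and 20.9 TPM in KI and 27.2, 41.1, 28.1, 28.1 and 38.2 TPM in WT, with KI 3 inside the WT range. Its log2 fold change of -0.44 ± 0.20 did not pass the test (adjusted p = 0.111), it was called lower only without KI 3 among the 10 fits that left out 1 library, and its muscle-adjusted value was 0.08. Slc2a3, which encodes the high-affinity transporter GLUT3, had the lowest mean TPM of the 38 genes over the 10 libraries, although in WT skin alone Car9, at 1.37 TPM, was as low as Slc2a3, at 1.39 TPM. Its level was 1.38, 1.62, 0.83, 1.14 and 1.38 TPM in KI and 1.59, 2.04, 1.21, 0.98 and 1.14 TPM in WT, with a log2 fold change of -0.12 ± 0.22 (adjusted p = 0.706). Slc2a1 and Slc2a3 together summed to 92.3 ± 17.1 TPM in KI and 23.0 ± 3.69 TPM in WT, whereas Slc16a1 and Slc16a3 together summed to 50.8 ± 7.0 TPM in KI and 48.4 ± 4.44 TPM in WT (SD, n = 5 each).

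Of the 16 glycolytic enzymes, 3 (18.8%) were higher in KI skin, 2 (12.5%) lower and 11 not called, near the 15.6% higher and 15.3% lower among all genes tested. The 3 that rose, Eno1, Pgam1 and Pfkl, are the forms of their steps used widely outside muscle, but Hk1, Gpi1, Pgk1, Pkm and Ldha, also used widely outside muscle, were not called. Eno1 (chr4:150236721-150248879, plus strand) encodes alpha-enolase. It was at 388, 396, 310.4, 361 and 265 TPM in KI and 164, 173, 177, 166 and 172 TPM in WT. All KI libraries were above all WT libraries, which lay close together. Means were 344 ± 55.6 TPM in KI skin and 170 ± 5.43 TPM in WT skin (SD, n = 5 each), with a log2 change of 1.16 ± 0.14 (± SE, edgeR; adjusted p = 0.000532). The change was 1.47 within EAS37, 0.93 within EAS42 and 0.88 when muscle-adjusted (adjusted p = 0.0272). Near-identical copies held 5.91% as many counts as Eno1, most of them in Eno1b with 2304 counts in KI and 963 in WT, so some Eno1 reads may be assigned there.

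Pgam1 (chr19:41911923-41918660, plus strand) encodes the brain form of phosphoglycerate mutase, which is also the form of most non-muscle tissues. Its level was 177, 199, 139, 179.8 and 134 TPM in KI libraries and 104, 79.5, 101, 94.9 and 91.5 TPM in WT libraries, with no overlap. Its log2 change of 0.91 ± 0.14 (± SE, edgeR; adjusted p = 0.00155) was 1.22 within EAS37 and 0.68 within EAS42. The muscle-adjusted value was 0.54 and no longer called (adjusted p = 0.0654). Pfkl (chr10:77986947-78010083, minus strand), the liver-type phosphofructokinase, was at 24.6, 27.2, 22.3, 28.3 and 22.0 TPM in KI and 17.6, 13.7, 15.9, 17.1 and 18.1 TPM in WT. Its groups did not overlap either. Pfkl changed by 0.72 ± 0.12 in log2 (± SE, edgeR; adjusted p = 0.00281), with 1.0 within EAS37 and 0.46 within EAS42, where the adjusted p was 0.0735. Muscle-adjusted, it was 0.49 (adjusted p = 0.136).

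Both enzymes that fell are abundant in skeletal muscle. Aldoa (chr7:126795234-126800751, minus strand), the aldolase of muscle and most other tissues, had the highest mean TPM of the 38 genes over the 10 libraries. It was at 1540.3, 859, 2434, 1246 and 2038 TPM in KI and 2702, 3916, 2633, 2507 and 3112 TPM in WT. KI 2 was lowest and KI 3 came close to the lowest WT library. Its log2 change was -0.73 ± 0.24 (± SE, edgeR; adjusted p = 0.0368), but only -0.11 when muscle-adjusted (adjusted p = 0.807). Pfkm (chr15:98092589-98132451, plus strand), the muscle-type phosphofructokinase, was at 73.6, 27.2, 148, 60.3 and 108 TPM in KI and 168, 256, 167, 162 and 210.0 TPM in WT. Again KI 2 was lowest and KI 3 highest within KI, as in the summed muscle markers. Pfkm changed by -1.14 ± 0.37 in log2 (± SE, edgeR; adjusted p = 0.0409) and by -0.12 when muscle-adjusted (adjusted p = 0.787). Within EAS37 and EAS42, Aldoa changed by -1.02 and -0.54 and Pfkm by -1.71 and -0.82 on the log2 scale, none of them called. Leaving out 1 library kept the Aldoa call in 3 of 10 fits (without KI 3, KI 5 or WT 4) and the Pfkm call in 2 of 10 (without KI 2 or KI 3).

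The other 11 enzymes were not called. Gapdh, at 1799, 1337, 2087, 1425 and 1959.7 TPM in KI and 1838, 2668, 1749, 2033 and 2494 TPM in WT, had a log2 fold change of -0.37 ± 0.18 (adjusted p = 0.143), and 76 near-identical copies held 4.06% as many counts. Tpi1, triose phosphate isomerase, was at 345, 279, 538, 348 and 368 TPM in KI and 440.3, 499, 460.1, 559.9 and 666 TPM in WT, with -0.37 ± 0.17 (adjusted p = 0.107). It was called lower without KI 3 and with the prefix as a block (edgeR adjusted p = 0.0338). Aldoc, an aldolase best known from brain, was at 8.52, 10.3, 9.77, 9.52 and 11.8 TPM in KI and 9.34, 6.38, 7.35, 9.40 and 11.1 TPM in WT, with 0.26 ± 0.13 (adjusted p = 0.15), and was called higher without WT 5. In all 3 genes the groups overlapped. The 8 remaining enzymes (Hk1, Hk2, Gpi1, Pfkp, Pgk1, Pkm, Ldha and Ldhb) had log2 fold changes between -0.10 and 0.43. Pfkp, the platelet-type phosphofructokinase, was the largest of them at 0.43 ± 0.23 (adjusted p = 0.185). It was called higher within EAS37 (0.48, adjusted p = 0.033) and within EAS42 (0.74, adjusted p = 0.00808), while the muscle-adjusted value was 0.01 (adjusted p = 0.99). Its KI level was 103 and 109.7 TPM in EAS37 and 66.6 to 83.7 TPM in EAS42, and its WT level 75.3 to 89.2 TPM in EAS37 and 41.7 and 50.9 TPM in EAS42. Ldha, the lactate dehydrogenase form that favours lactate and a known HIF target, averaged 642 ± 66.7 TPM in KI skin and 714 ± 96.1 TPM in WT skin (SD, n = 5 each), with a log2 fold change of -0.06 ± 0.13 (adjusted p = 0.745). Hk2, the inducible hexokinase, averaged 48.6 ± 10.9 TPM in KI skin and 42.6 ± 6.79 TPM in WT skin (log2 fold change -0.05 ± 0.15, adjusted p = 0.836). For Hk2 the TPM means and the fitted fold change differ in sign. The fit rests on counts, which summed to 10329 in KI and 11283 in WT, whereas TPM is also scaled to transcript length. Why the 2 measures differ was not tested. Copies held 10.9% as many counts as Pgk1, mostly Gm5537, so its level is uncertain. Summed over the 16 enzymes, the level was 6457 ± 1210 TPM in KI and 8404 ± 1120 TPM in WT (SD, n = 5 each). The groups overlapped, with KI 3 at 8057 TPM and WT 3 at 7384 TPM. The largest terms of the sum were Aldoa, with means of 1620 TPM in KI and 2970 TPM in WT, and Gapdh, with 1720 and 2160 TPM.

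**Figure D2:**
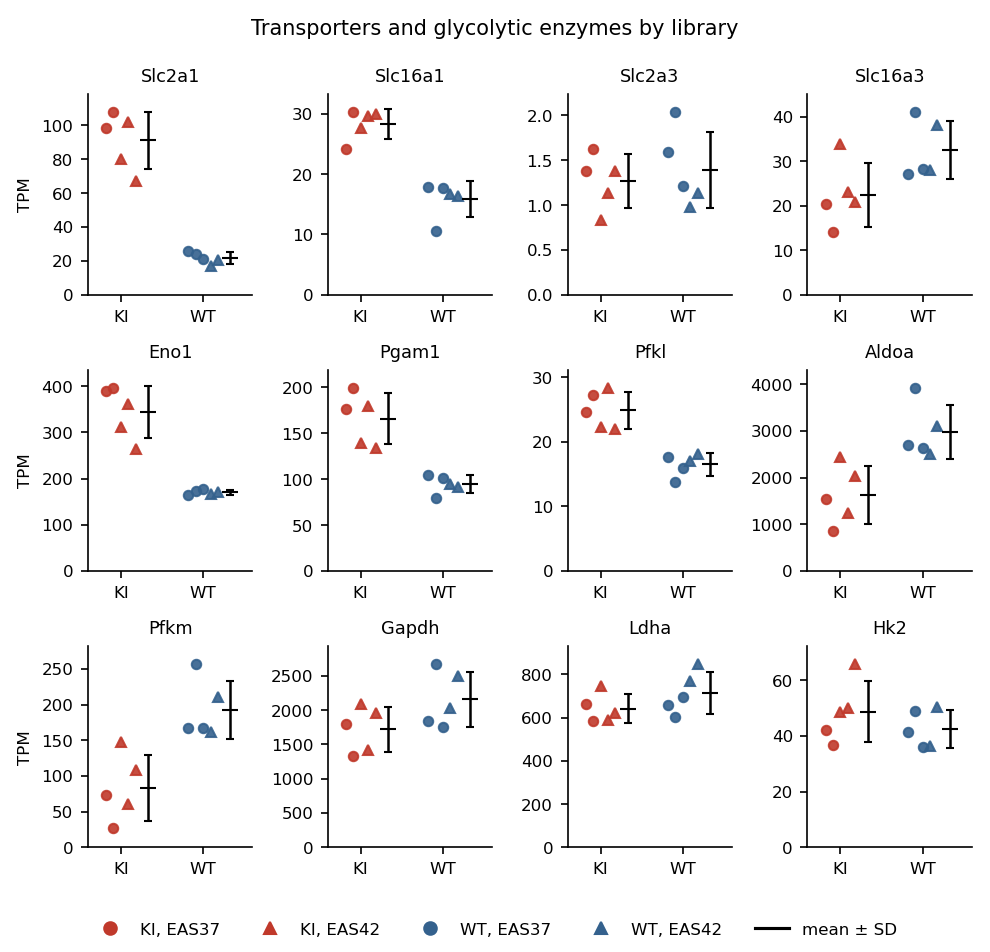
TPM (y axis, from 0) of 12 transporters and glycolytic enzymes in each KI and WT library, with the mean and SD of 5 libraries beside them and the title prefix as symbol shape. KI libraries lie above all WT libraries for Slc2a1, Slc16a1, Eno1, Pgam1 and Pfkl, and below them for Aldoa and Pfkm.

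The share that 1 form took among the forms of its step was compared for 8 pairs or groups of forms with an exact two-sided permutation test over every assignment of 5 against 5 libraries, adjusted over the 8 shares. The smallest p this design allows is 0.00794, which becomes 0.0106 after adjustment, and 6 shares reached it. Pfkm made up 36.7, 16.6, 62.5, 35.1 and 50.5% of phosphofructokinase TPM in KI libraries and 64.3, 71.4, 64.2, 73.4 and 75.3% in WT libraries. Means were 40.3 ± 17.3% in KI and 69.7 ± 5.17% in WT (SD, n = 5 each), with no overlap. Pgam2, the muscle phosphoglycerate mutase, averaged 50.4 ± 21.7% of its step in KI and 85.5 ± 3.24% in WT, and Eno3, the muscle enolase, 46.0 ± 21.8% in KI and 84.7 ± 2.88% in WT. KI 2 had the lowest and KI 3 the highest share within KI for each of these 3 muscle forms. The difference was present within both prefixes, for Pfkm with 26.6% in KI and 66.6% in WT within EAS37, and 49.4% in KI and 74.3% in WT within EAS42.

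A share mixes both partners. The summed level of both phosphoglycerate mutases was lower in KI, at 370 ± 107 TPM, than in WT, at 668 ± 116 TPM, without overlap, although Pgam1 itself was higher. The summed enolase level was 698 ± 207 TPM in KI and 1150 ± 223 TPM in WT, where the groups overlapped. Slc16a3 took 43.5 ± 8.38% of the summed Slc16a1 and Slc16a3 level in KI and 66.8 ± 8.03% in WT. Slc2a3 took 1.40 ± 0.392% of the summed Slc2a1 and Slc2a3 level in KI and 5.97 ± 1.07% in WT, where Slc2a3 itself was not called. The Aldoa share fell by 0.391 points and was at least 98.8% in every library. Ldha took 79.4 ± 7.65% of lactate dehydrogenase TPM in KI and 79.9 ± 1.8% in WT (adjusted exact p = 0.921), with KI 5 lowest at 66.5%. Hk2 took 64.8 ± 3.71% of the summed Hk1 and Hk2 level in KI and 62.2 ± 4.37% in WT (adjusted exact p = 0.363).

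**Figure D3:**
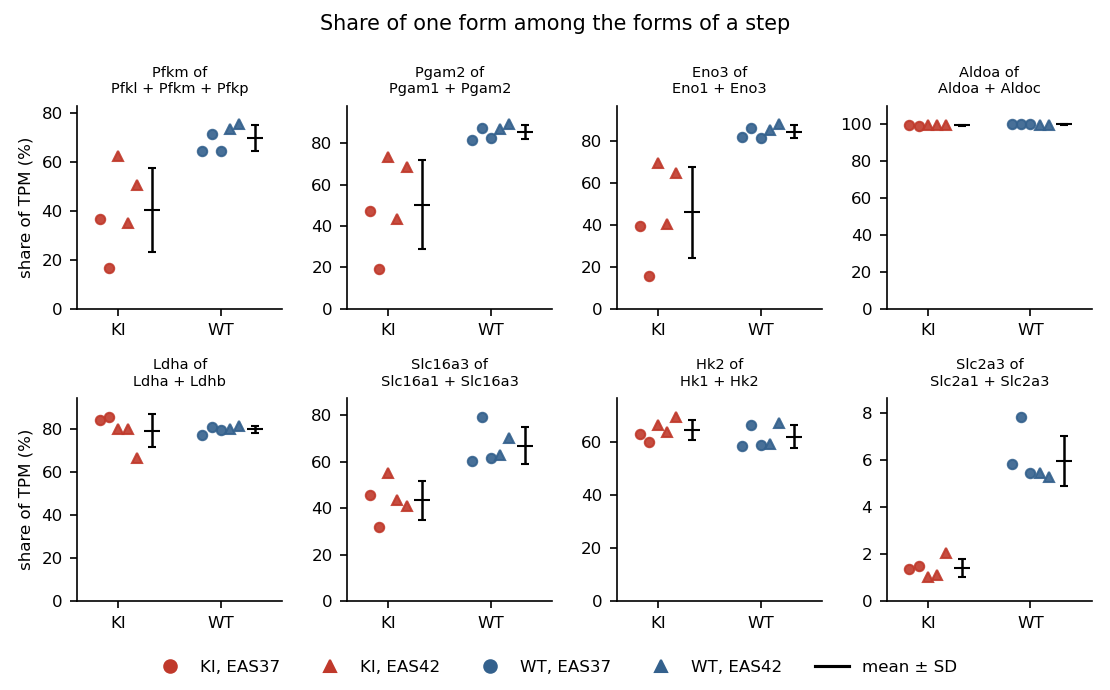
Share of 1 form in the summed TPM of the forms of its step (y axis, percent, from 0) in each KI and WT library, with mean and SD of 5 libraries. The muscle forms Pfkm, Pgam2 and Eno3 spread widely in KI and sit between 64.2% and 89.2% in WT, while the Ldha and Hk2 shares overlap between groups.

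None of the 3 kinases was called higher or lower by edgeR or DESeq2, and none had an unadjusted p under 0.05 in edgeR. Pfkfb3, whose product makes the allosteric activator of phosphofructokinase, was at 7.44, 9.65, 13.5, 10.5 and 9.41 TPM in KI and 10.5, 12.9, 10, 11.9 and 13.9 TPM in WT (log2 fold change -0.19 ± 0.13, adjusted p = 0.288). Pfkfb4, a second enzyme of that kind, was at 10.8, 11.1, 14.7, 12.7 and 13.1 TPM in KI and 11.6, 18.2, 12.2, 14.8 and 18.6 TPM in WT (-0.29 ± 0.15, adjusted p = 0.176). Pdk1 encodes a kinase that inhibits pyruvate dehydrogenase by phosphorylating it. Its level was 18.9, 18.8, 19.7, 22.1 and 25.9 TPM in KI and 22.4, 25.2, 21.7, 21.4 and 20.1 TPM in WT (-0.09 ± 0.08, adjusted p = 0.436). The groups overlapped for all 3 genes.

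Among the 7 HIF subunits and oxygen-sensing genes, 2 (28.6%) were higher and 3 (42.9%) lower, against 15.6% and 15.3% of all genes tested. With no filter 2 were higher and 1 lower, within EAS37 alone 1 and 1, and within EAS42 alone 1 and 0. Changes were small apart from Egln3. Egln3 (chr12:54178981-54203860, minus strand), the prolyl hydroxylase that is itself induced by HIF, was at 41.7, 53.1, 48.6, 51.5 and 36.7 TPM in KI and 22.5, 37.6, 20.2, 28.8 and 28.1 TPM in WT. The groups overlapped through WT 2 and KI 5. Egln3 rose by 0.83 ± 0.18 in log2 (± SE, edgeR; adjusted p = 0.00692), 1.03 within EAS37 (adjusted p = 0.0632) and 0.66 within EAS42 (adjusted p = 0.0296). The muscle-adjusted value was 0.78, with an adjusted p of 0.162. Hif1a (chr12:73901375-73947530, plus strand), the alpha subunit found in nearly all cells, was at 30.2, 40.8, 26.5, 36.5 and 28.6 TPM in KI and 28.5, 20.4, 24.5, 25.9 and 27.0 TPM in WT. KI 2 and KI 4 were highest, and KI 3 lay within the WT range. Its log2 change of 0.48 ± 0.13 (± SE, edgeR; adjusted p = 0.0178) was 0.77 within EAS37 (adjusted p = 0.0111) and 0.22 within EAS42 (adjusted p = 0.26), and the difference between the prefixes did not pass the test (-0.51, adjusted p = 0.235). Muscle-adjusted, Hif1a changed by 0.12 (adjusted p = 0.641).

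Epas1 (chr17:86753700-86833410, plus strand), the alpha subunit HIF-2alpha that is abundant in endothelium, was at 21.9, 23.6, 29.6, 23.8 and 26.9 TPM in KI and 32.6, 37.8, 30.7, 32.8 and 29.4 TPM in WT, so that KI 3 reached into the WT range. Epas1 changed by -0.29 ± 0.09 in log2 (± SE, edgeR; adjusted p = 0.0371). The call was kept in 3 of 10 fits that left out 1 library (without KI 3, WT 3 or WT 5). The summed level of endothelial markers, given above, was lower in every KI library than in any WT library. Among the single markers, Egfl7, Cldn5 and Vwf overlapped between the groups. With the mean endothelial marker level as a covariate the Epas1 change was 0.01 (adjusted p = 0.998), in a fit that called 3 of the 17321 genes (0.0173%). That fit called 0 of the 38 members. The endothelial level does not overlap between KI and WT, so the fit cannot separate it from genotype. Egln2 (chr7:27158658-27166802, minus strand), a prolyl hydroxylase less tied to hypoxia, was at 35.1, 38.5, 41.5, 40.9 and 42.5 TPM in KI and 49.0, 58.3, 49.0, 48.0 and 49.0 TPM in WT. It was lower in every KI library, with a log2 change of -0.24 ± 0.07 (± SE, edgeR; adjusted p = 0.0246), and lost its call without KI 2 or KI 4. Arnt (chr3:95434388-95497240, plus strand) averaged 22.8 ± 3.24 TPM in KI skin and 28.5 ± 1.28 TPM in WT skin (SD, n = 5 each), with no overlap and -0.21 ± 0.07 (adjusted p = 0.0483). That call was kept in 1 of the 10 fits, the one without KI 3. Muscle-adjusted, none of the 3 was called, with -0.17 for Epas1 (adjusted p = 0.519), -0.18 for Egln2 (adjusted p = 0.377) and -0.07 for Arnt (adjusted p = 0.735). Egln1, the main oxygen sensor, averaged 33.9 ± 2.63 TPM in KI skin and 33.8 ± 3.26 TPM in WT skin (adjusted p = 0.449), and Vhl 9.07 ± 0.19 TPM in KI skin and 9.25 ± 1.32 TPM in WT skin (adjusted p = 0.63). Neither was called.

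Of the 8 genes grouped here as HIF targets, 2 (25%) were higher, 1 (12.5%) lower and 5 not called. Among all genes tested the shares were 15.6% higher and 15.3% lower. These 8 are not all the HIF targets among the 38 genes, which were grouped by role. Ldha and Egln3, described above as a HIF target and as induced by HIF, are examples counted in other groups. The shares of this group therefore do not describe HIF targets as a whole. Car9 (chr4:43506966-43513729, plus strand) encodes a carbonic anhydrase of the cell surface that is a standard marker of hypoxia. It was at 4.59, 4.32, 1.96, 3.55 and 2.45 TPM in KI and 1.37, 2.11, 0.40, 1.42 and 1.56 TPM in WT, levels near the bottom of the 38 genes, and KI 3 lay below WT 2. Car9 rose by 2.04 ± 0.32 in log2 (± SE, edgeR; adjusted p = 0.00197), on 412 counts over the KI libraries and 108 over the WT libraries, with 2.72 within EAS37 and 1.37 within EAS42. The ratio of its mean TPM, 2.46, is a smaller change than the fitted one, which rests on counts. Muscle-adjusted, Car9 changed by 1.58 and was not called (adjusted p = 0.0972). Ankrd37 (chr8:45996902-46005707, minus strand), a direct HIF target in human cells, was at 20.1, 13.4, 14.6, 14.2 and 13.3 TPM in KI and 6.0, 9.84, 6.43, 7.0 and 6.69 TPM in WT. The groups did not overlap, and KI 1 and WT 2 were the highest of their groups. Its log2 change was 1.17 ± 0.19 (± SE, edgeR; adjusted p = 0.00213), 1.29 within EAS37, 1.15 within EAS42, and 1.19 when muscle-adjusted (adjusted p = 0.0523). Ankrd37 shares its span with Ufsp2 and Lrp2bp on the other strand.

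Bnip3 (chr7:138890836-138909519, minus strand), a mitophagy receptor that hypoxia induces in many cells, was at 39.2, 38.1, 60.1, 54.2 and 60.7 TPM in KI and 88.4, 89.7, 78.2, 82.8 and 89.4 TPM in WT. Every KI library was below every WT library, and KI 1 and KI 2 were lowest. Bnip3 changed by -0.65 ± 0.11 in log2 (± SE, edgeR; adjusted p = 0.00294), -0.89 within EAS37 and -0.51 within EAS42. This call was kept in all 10 fits that left out 1 library. The muscle-adjusted change was -0.35 (adjusted p = 0.0912).

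Car12 (chr9:66713686-66766845, plus strand), a second surface carbonic anhydrase, was at 144, 141, 151, 155 and 107 TPM in KI and 88.6, 94.3, 70.9, 14.9 and 16.5 TPM in WT. All KI libraries were above all WT libraries, yet WT libraries fell into a high set, the 3 of EAS37, and a low set, WT 4 and WT 5 of EAS42. The log2 fold change of 1.37 ± 0.50 was not called (edgeR adjusted p = 0.0619). It was called within EAS37 (0.95, adjusted p = 0.00615) and within EAS42 (3.08, adjusted p = 0.000663), and the difference between both effects, 2.16, passed the test (adjusted p = 0.0142). Car12 was the 1 member with a called difference between prefixes, where 0.866% of all genes tested had one. It was also called with the prefix as a block (adjusted p = 0.00717), by DESeq2, limma-voom and limma-trend, with a minimum count of 50, and without WT 2. Its muscle-adjusted value was 1.13 (adjusted p = 0.449). Vegfa (chr17:46016993-46032369, minus strand), the endothelial growth factor and a classic HIF target, was at 36.9, 34.4, 67.9, 46.2 and 46.4 TPM in KI and 46.1, 40.2, 53.3, 45.0 and 48.8 TPM in WT. KI 3 was highest and the groups overlapped, with a log2 fold change of 0.11 ± 0.15 (adjusted p = 0.596) and a muscle-adjusted value of 0.41 (adjusted p = 0.215). Adm, Ndrg1 and P4ha1 had log2 fold changes of -0.21, -0.21 and -0.17 and were not called (adjusted p = 0.505, 0.204 and 0.466).

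**Figure D4:**
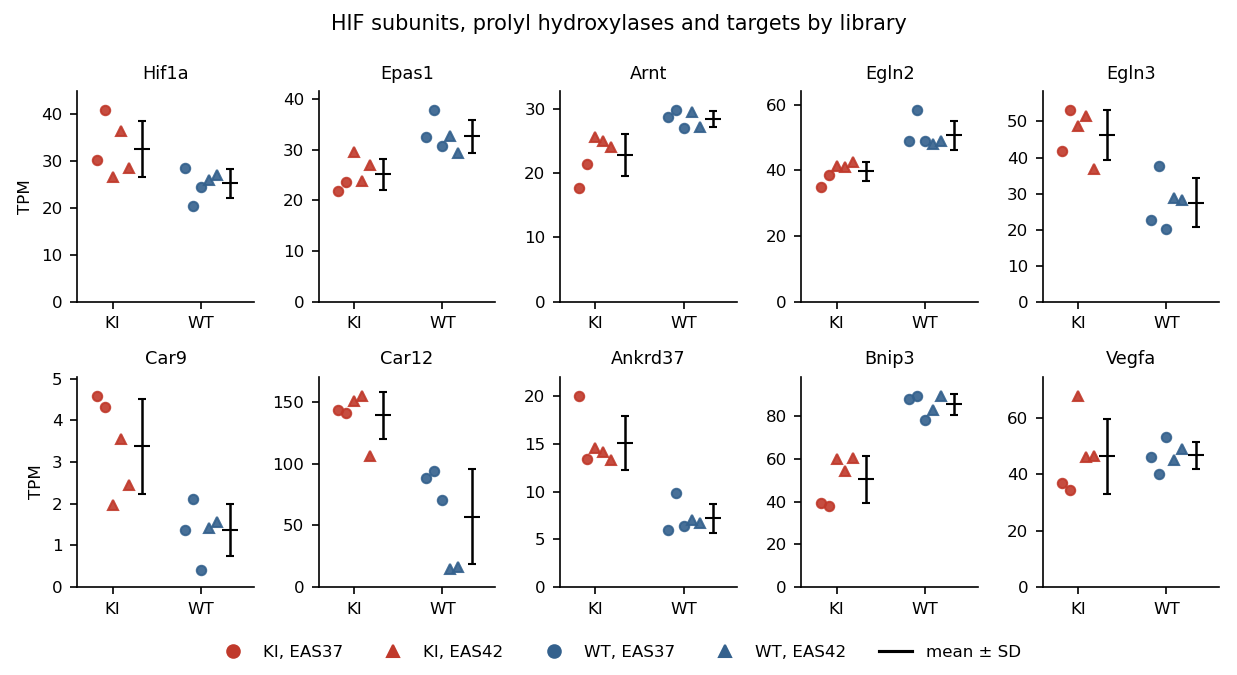
TPM (y axis, from 0) of 10 HIF subunits, prolyl hydroxylases and targets in each KI and WT library, with mean and SD of 5 libraries and the title prefix as symbol shape. Ankrd37 and Car12 are higher and Egln2, Arnt and Bnip3 lower in every KI library than in any WT library, and WT 4 and WT 5 stand low for Car12.

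Further genes of these pathways were grouped in 5 lists of 81 names, whose counts stand against 15.6% higher and 15.3% lower among all genes tested. Of the 7 pentose phosphate genes, which divert glucose 6-phosphate to NADPH and ribose, 4 were higher by edgeR and 5 by DESeq2, and none was lower by either tool or at an unadjusted p under 0.05 in edgeR. The median log2 fold change was 0.33, against -0.01 over all genes tested. G6pdx, which encodes the first and rate-limiting enzyme, averaged 36.3 ± 2.57 TPM in KI skin and 23.1 ± 2.56 TPM in WT skin (SD, n = 5 each; log2 fold change 0.74 ± 0.09, adjusted p = 0.000653). Pgd, the second NADPH-forming enzyme, averaged 73.8 ± 6.32 TPM in KI skin and 51.2 ± 4.16 TPM in WT skin (0.62 ± 0.08, adjusted p = 0.000736). These 2 kept their calls when muscle-adjusted, at 0.55 (adjusted p = 0.0356) and 0.56 (adjusted p = 0.0337). Tkt, transketolase, changed by 0.48 ± 0.08 (adjusted p = 0.00277), and Pgls by 0.33 ± 0.09 (adjusted p = 0.0243).

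The list of 8 muscle forms of glycolysis and glycogen breakdown had a median log2 fold change of -1.04, with 2 lower and none higher. DESeq2 called 5 lower and none higher. Pgam2 averaged 204 ± 133 TPM in KI skin and 574 ± 119 TPM in WT skin (-1.42 ± 0.45, adjusted p = 0.0362) and Eno3 354 ± 248 TPM in KI skin and 977 ± 222 TPM in WT skin (-1.40 ± 0.48, adjusted p = 0.0478; SD, n = 5 each). Phka1, a subunit of phosphorylase kinase, and Slc2a4, the insulin-regulated glucose transporter, had -1.11 ± 0.40 and -0.97 ± 0.38 and were not called. When muscle-adjusted, the list's median was 0.13 and none of its genes was called, nor had any an unadjusted p under 0.05. Among the 23 tested of 26 other glycolytic and pyruvate genes, 1 was higher and 4 lower (median -0.15). Pdha1, a subunit of pyruvate dehydrogenase, changed by -0.42 ± 0.12 (adjusted p = 0.0267), Pdk2, a kinase of that enzyme, by -1.08 ± 0.32 (adjusted p = 0.029), and Pdp1, its phosphatase, by -0.39 ± 0.12 (adjusted p = 0.0352). Adpgk, an ADP-dependent glucokinase, was the 1 that rose (0.32 ± 0.11, adjusted p = 0.0452). In this list DESeq2 called 1 higher and 5 lower, and the fit with no filter 0 and 2. Within EAS37 alone 0 were higher and 8 lower. Within EAS42 alone and when muscle-adjusted, 0 were higher and 0 lower.

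Of 12 other HIF regulators, 3 were lower and none higher (4 lower and 1 higher by DESeq2), with a median of -0.04. At an unadjusted p under 0.05 in edgeR, 1 was higher, as were 3643 of all 17321 genes. Cited2, a HIF-induced protein that competes with HIF for its coactivators, averaged 34.2 ± 8.24 TPM in KI skin and 52.0 ± 8.16 TPM in WT skin (-0.52 ± 0.13, adjusted p = 0.0138). Hif1an, the asparagine hydroxylase that limits HIF activity, changed by -0.40 ± 0.11 (adjusted p = 0.0218), and Arnt2, a form of Arnt best known from neurons, by -0.99 ± 0.31 (adjusted p = 0.0324) at low levels, 0.72 ± 0.371 TPM in KI skin and 1.52 ± 0.268 TPM in WT skin. Elob, a subunit of the complex that holds Vhl, had 0.28 ± 0.10 (adjusted p = 0.0573). The 27 tested of 28 other HIF targets held 6 higher (22.2%) and 8 lower (29.6%) genes, with a median of -0.48. That median was -0.25 with the prefix as a block, -0.01 within EAS42 alone (2 higher, 3 lower) and -0.08 when muscle-adjusted (1 higher, none lower). At an unadjusted p under 0.05 the muscle-adjusted fit had 3 of the 27 higher and 5 lower. Among all 17321 genes it had 1641 higher and 1523 lower at that threshold. Bhlhe40, a transcriptional repressor linked to the circadian clock, averaged 48.3 ± 10.6 TPM in KI skin and 23.7 ± 5.11 TPM in WT skin (1.12 ± 0.18, adjusted p = 0.00226). Fam162a, a mitochondrial protein, averaged 219 ± 20.9 TPM in KI skin and 130 ± 19.3 TPM in WT skin (0.84 ± 0.14, adjusted p = 0.00229). By contrast Plod1, a collagen lysyl hydroxylase, averaged 13.2 ± 2.14 TPM in KI skin and 20.9 ± 1.79 TPM in WT skin (-0.63 ± 0.09, adjusted p = 0.00113), and P4ha2, a collagen prolyl hydroxylase, 15.8 ± 3.27 TPM in KI skin and 25.8 ± 4.29 TPM in WT skin (-0.67 ± 0.12, adjusted p = 0.00333). Epo, the kidney hormone gene, was listed at 0 in all libraries.

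**Figure D5:**
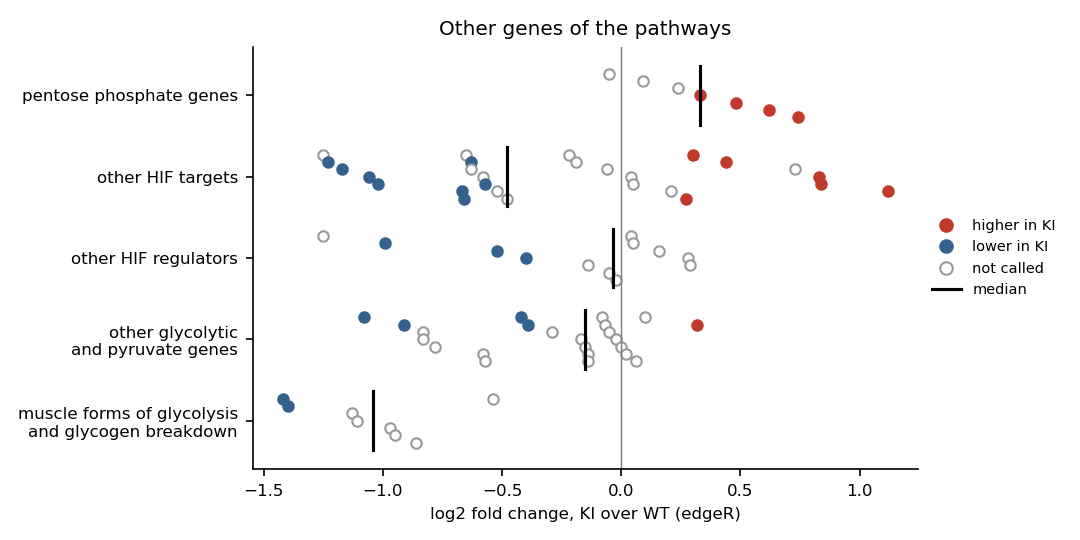
Log2 fold change in KI over WT skin (x axis) of the tested genes in 5 lists of other pathway genes, 1 point a gene, with the list median as a black line. Pentose phosphate genes lie to the right with a median of 0.33, muscle forms to the left with a median of -1.04, and other HIF targets are called on both sides.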

How the data were processed

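Skin RNA was extracted with trizol and made into libraries with a stranded mRNA kit, per the labels' protocols. Tools listed without role or order in the submitters' processing notes are STAR 2.5.2b, featureCounts, Picard 2.8.1, FastQC and DESeq2, with the build GRCm38. The deposited tables have RSEM's columns, in which the authors gave expected counts, TPM and FPKM, per the file headers. No RSEM version, annotation release or strand setting is given in the sources used here, and 17 of the 38 genes overlap a gene on the other strand. Expected counts (10.4% to 12.2% of values fractional) were rounded for testing, deposited TPM gave levels and shares, and deposited FPKM and the authors' length columns (other values) were not used.

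A reference list of gene names, filled in from GENCODE M21 where it had none, named 55141 of 55487 identifiers. GENCODE M21 gave coordinates on GRCm38. Aldoa has 2 identifiers, of which the nearly silent one was left out. KI was compared with WT by edgeR 4.0.16 (R 4.3.3; filterByExpr with minimum count 10, TMM, robust quasi-likelihood test, Benjamini-Hochberg threshold 0.05). Near-identical copies were sought with BLASTN 2.17.0 (95% identity over at least 300 bases and 50% of the shorter transcript). Marker levels used as covariates are mean log2 CPM computed from the counts (prior count 2). Tests were tried on simulated counts.

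Levels in every library are given for up to 4 members of each role (8 enzymes) with the smallest p, plus Hif1a, Epas1, Vegfa, Slc2a1 and Pfkm, and up to 4 genes of each other list are named. Pfkp, Ldha and Hk2 were added after their values were seen. Members, lists and tests were chosen with earlier results of these data known. Replicate numbers follow accession order and pair nothing. Nothing more is said of the animals, so p-values measure the spread between these 10 samples. Alternatives were DESeq2 size factors, upper quartile scaling, no filter, minimum count 50, DESeq2 1.42.0, limma-voom and limma-trend on log2(TPM + 1) (limma 3.58.1), the prefix as a block, muscle or endothelial level as a covariate, each prefix alone and each library left out.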

Additional observations from a re-analysis of the deposited data

Results flagged for a closer look

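Each group of 5 libraries was examined for a library far from the rest (Dixon's criterion at 95%) over 92 groups of values, and 7 stood out, where chance gives about 1 in 20. In WT 2, Slc16a1 was lowest at 10.64 TPM, with the next WT library at 16.31 TPM. Also in WT 2, P4ha1 was lowest at 15.3 TPM, Egln2 highest at 58.32 TPM and Ankrd37 highest at 9.84 TPM, and the Slc2a3 share of the summed Slc2a1 and Slc2a3 level was highest at 7.843%. KI 1 had the highest Ankrd37 level of the KI libraries, 20.05 TPM, with the next at 14.55 TPM. Hk1 was highest in WT 1 at 29.0 TPM, with the next WT library at 25.01 TPM. The KI effect on Car12 differed between the title prefixes by 2.16 on the log2 scale (interaction in edgeR, adjusted p = 0.0142), being larger within EAS42.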

How the results depend on the processing

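The 9 higher calls were kept under every alternative other than the covariates and single prefixes, except Hif1a under limma-trend. Of the 6 lower calls, Bnip3 lost its call only under the covariates, and the other 5 also under further settings. Members lower numbered 2 with no filter, where more genes were tested, 2 within EAS37 and 1 within EAS42, which hold fewer samples, and 1 to 8 over fits that left out 1 library. With the muscle level as a covariate 3 members were called, 3 higher and 0 lower. The muscle level overlapped between KI and WT only through KI 3, so that fit separates it from genotype poorly. With the endothelial level 0 were called (0 higher, 0 lower). At an unadjusted p under 0.05, 4 members were higher and 0 lower, against 572 higher and 415 lower of all 17321 genes. The endothelial level does not overlap between KI and WT, so the fit cannot separate it from genotype. DESeq2 called 10 higher and 6 lower, and the prefix block 11 higher and 7 lower.

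These log2 fold changes, none of them called under the alternative, turned round, and the cause was not tested. With the muscle level, Slc16a3 became 0.08, Tpi1 0.03, Gapdh 0.03, Pfkfb4 0.03 and Pdk1 0.04. With the endothelial level, Pfkfb3 became 0.09, Pdk1 0.03, Hif1a -0.00 and Epas1 0.01. Slc2a3 became 0.14 within EAS42 and ranged from -0.23 to 0.09 over fits that left out 1 library. Vegfa became -0.10 within EAS37 and -0.05 by limma-trend, and ranged from -0.04 to 0.19. The Hk2 share differed by -2.55 points from expected counts, and the Ldha share ranged from -2.19 to 2.67 points. Of 528 alternative values for 24 members, 440 kept direction and side of the threshold, 62 lost their call, 12 gained one and 14 turned round. The median of all genes stayed within 0.08 of 0 on the log2 scale under every scaling. No paired analysis was possible because no animal number in the titles occurs in both KI and WT under the same prefix, so that only the prefix itself could serve as a block. Car9, at 412 KI and 108 WT counts, and Slc2a3 rest on the fewest counts.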
